A study of Mus musculus with 24 samples.

Results

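The messenger RNAs bound by STAU2 in the embryonic mouse cortex were compared between embryonic day 13.5 (E13.5) and E15.5, gene by gene and position by position. A protein-coding gene was counted on a day when a peak deposited for that day shared at least 1 bp with an exon of the gene on the same strand. It was called gained when this held at E15.5 only, lost when it held at E13.5 only, and shared when it held on both days. Of 21924 protein-coding genes in the annotation (GENCODE vM21, GRCm38), 5232 had such a peak on at least 1 of the 2 days, out of 6609 with a peak at any of the 4 days of the series. The classes held 2654 gained genes, 874 lost genes and 1704 shared genes. They came to 12.1%, 3.99% and 7.77% of all protein-coding genes and to 50.7%, 16.7% and 32.6% of the 5232.

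STAU2 belongs to the Staufen family of proteins that bind double-stranded RNA. It joins ribonucleoprotein particles that carry messenger RNAs along microtubules, and it is known for sorting RNAs in neuronal dendrites and for unequal inheritance of RNAs when cortical progenitors divide. Its contacts lie in base-paired stretches, which occur in 3' untranslated regions (3' UTRs) and in coding sequence (CDS). Between E13.5 and E15.5 the cortex moves from making mainly deep-layer neurons toward making upper-layer neurons, while radial glia and intermediate progenitors go on dividing.

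RNA was pulled down from cortex with an antibody against STAU2 (RNA immunoprecipitation, RIP), and the input RNA was sequenced as well. Each of the 2 days had 3 RIP and 3 input libraries, and each library started from the cortices of a pooled litter. The labels name no strain, genotype, sex or genetic manipulation, and no such difference separates the groups in them. For each day and strand the deposited values are 1 list of peaks that stands for all 6 libraries, so no value per replicate was at hand and no test over samples could be made. Shares are given with exact Clopper-Pearson 95% intervals, which cover counting error of genes only.

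The lists hold 5871 peaks at E13.5 and 10265 at E15.5, with a median width of 87 bp among those in coding exons on both days. A peak in a protein-coding exon made up 62.3% of the former and 72.4% of the latter, and such peaks touched 11.8% of all protein-coding genes at E13.5 and 19.9% at E15.5. Read depth is unknown, and the difference in list length cannot be told apart from a difference in depth or preparation of the libraries. With the E15.5 list cut to its strongest 5871 peaks by the authors' p, there were 1749 gained, 1271 lost and 1307 shared genes. Shortening that list can only lower the gained and raise the lost count. Gained genes still outnumbered lost ones, as they must whenever the E15.5 list touches more genes than the E13.5 list. The cut equalised the number of all peaks and not that of peaks in coding exons. The authors' p and q belong to each peak, and it is not stated whether a peak can also stand for RNA that was depleted by the RIP. A peak is therefore called listed below, and its rank is its place by p among all peaks of its day, with rank 1 the smallest p. A rank percentile is that rank as a percent of the day's list, so a low percentile marks a strong peak. Because the lists differ in length, ranks of the 2 days are not on the same scale. A somewhat larger rank number at E15.5 can be a lower percentile, and so no weaker a place in the list.

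Positions listed on both days are shown first, since they carry the part of the STAU2 set that did not turn over. In CDS, the sequences shown are those with the best mean rank among shared positions with at least 50 shared bases that spanned at most 300 nt within 1 exon and clear of any 3' UTR. They lay in Itm2b, a transmembrane protein gene, Mki67, the proliferation marker Ki-67, Ppp5c, a serine/threonine phosphatase gene, and Srrm2, a scaffold of the spliceosome. The sequences run 5' to 3' on the RNA strand and cover the bases listed on either day, with capitals for bases listed on both. They were read from GENCODE vM21 transcripts and lie at chr14:73364549-73364682 (minus strand), chr7:135697216-135697425 (minus strand), chr7:17007131-17007237 (minus strand) and chr17:23816731-23816846 (plus strand) of GRCm38.
Itm2b: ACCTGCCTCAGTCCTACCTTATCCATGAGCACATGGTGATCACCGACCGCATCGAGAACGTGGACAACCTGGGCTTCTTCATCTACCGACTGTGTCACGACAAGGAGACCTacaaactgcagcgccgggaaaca
Mki67: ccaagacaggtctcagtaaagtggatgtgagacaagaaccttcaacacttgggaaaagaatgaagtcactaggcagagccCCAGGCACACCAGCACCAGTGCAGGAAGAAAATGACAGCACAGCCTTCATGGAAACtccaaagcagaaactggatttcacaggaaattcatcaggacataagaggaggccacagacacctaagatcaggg
Ppp5c: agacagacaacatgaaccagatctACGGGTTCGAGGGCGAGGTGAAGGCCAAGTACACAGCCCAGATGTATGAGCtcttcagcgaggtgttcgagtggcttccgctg
Srrm2: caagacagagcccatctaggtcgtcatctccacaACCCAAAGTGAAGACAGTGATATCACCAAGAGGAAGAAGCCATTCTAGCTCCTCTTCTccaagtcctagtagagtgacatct
In Itm2b the 134 bases listed at E13.5 (rank 162) contained the 111 listed at E15.5 (rank 1806). In Mki67 210 bases at E13.5 (rank 41) contained 56 at E15.5 (rank 1975). Ppp5c had 51 bases in common between rank 824 and rank 1262, and Srrm2 had 58 between rank 469 and rank 1869. GC content of the 4 sequences lay between 47.4% and 55.1%, and between 48.6% and 56.9% of their bases were paired in the fold of lowest free energy.

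The 3' UTR positions shown next had better ranks than these. They were chosen under looser limits, with at least 30 shared bases, so the ranks do not compare CDS with 3' UTR. The central 30 bases of the stretch listed on both days follow for 4 genes, with capitals for bases that paired when the whole shared stretch was folded. They lie in Smarca4, the ATPase of the BAF chromatin remodelling complex (chr9:21703082-21703111, plus strand), Hmgn5, a nucleosome-binding protein gene (chrX:109004905-109004934, minus strand), Sfr1, a recombination factor gene (chr19:47735419-47735448, plus strand), and Atp1b2, a subunit of the sodium-potassium pump (chr11:69600046-69600075, minus strand).
Smarca4: TGCAatcTTCCAcatttttaGGCAGAgAaG
Hmgn5: tTATACATTTTGTGaTTatagtagtgcaAA
Sfr1: atctcaagtGGCATaAATGTAgcCTGCcct
Atp1b2: caaacaaaCAACcCTAtGacatcCcTAGaa
The Smarca4 stretch was listed at rank 130 at E13.5 and rank 43 at E15.5, and 214 bases were common to both days. With the end of the CDS as 0 and positions before it negative, its peak ran from 21 to 235 nt at E13.5 and from -26 to 367 nt at E15.5. Hmgn5 stood at rank 198 and rank 285 (percentiles 3.37 and 2.78) with 106 common bases, and Atp1b2 at rank 508 and rank 354 with 50. Sfr1 fell back from rank 2 at E13.5, with p = 1.61e-07 in the authors' list, to rank 793 at E15.5. All 4 genes had an exonic peak at E17.5 too, and Smarca4, Hmgn5 and Sfr1 also at E11.5.

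Other shared genes with overlapping peaks and a leading mean rank were Npepps, a cytosolic aminopeptidase gene (3' UTR, ranks 187 and 788), Leng8 (3' UTR, ranks 525 and 218, 12 common bases), Capn10, a calpain gene (CDS, ranks 493 and 95, 5 common bases), and the splicing factor gene Srsf4 (CDS, ranks 449 and 649). In Crtc2, a CREB coactivator gene, the overlapping peaks had their midpoints in an intron (ranks 586 and 431). Sst, the somatostatin gene of interneurons, went from a 3' UTR midpoint (chr16:23889616-23889710, rank 861) to a CDS midpoint (chr16:23889700-23889898, rank 185), and the peaks had 11 bases in common. A shared gene with overlapping peaks was thus not always one with the same peak.

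Over all 1704 shared genes, 723 had at least 1 pair of overlapping peaks (42.4%, 40.1-44.8), and 981 had none. There were 905 overlapping pairs, of which 876 had both peaks within 5000 bp. A pair shared a median of 62 bp (quartiles 48 and 111), which was 37.6% of the bases covered by either peak, and 5 pairs had identical start and end. Their midpoints lay in the same part of the transcript in 730 pairs, 494 of them in the 3' UTR and 170 in the CDS. Asking for an overlap of at least 50% of the shorter peak left 35.1% of shared genes, and allowing a gap of up to 100 bp gave 51.4%. Ranks of the 2 members of a pair were nearly unrelated, with a Spearman correlation across the 876 pairs of -0.0169. That value is a description over peaks of the same 2 lists, which are not replicates. Smarca4 and Capn10 stood higher in the E15.5 list, whereas Sfr1 and Npepps stood higher at E13.5.

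Genes whose peaks overlapped had stronger peaks than the other classes on both days. Their strongest exonic peak had a median rank percentile of 32.8 at E13.5 and 21.5 at E15.5. Shared genes without overlap had 44.2 and 38.8, lost genes 45.7 at E13.5 and gained genes 40.9 at E15.5. The strongest 10% of a day's list held 196 of the 723 overlapping genes at E15.5 (27.1%, 23.9-30.5), and 340 of the 2654 gained genes (12.8%, 11.6-14.1). At E13.5 it held 136 of the 723 (18.8%, 16.0-21.9) and 82 of the 874 lost genes (9.38%, 7.53-11.5). Overlapping genes also carried more peaks, and the best of several ranks is lower by construction. Just 1 exonic peak was listed for 84.4% of lost genes and 67.3% of gained genes, against 49.8% and 30% of overlapping genes at E13.5 and E15.5.

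**Figure D1:**
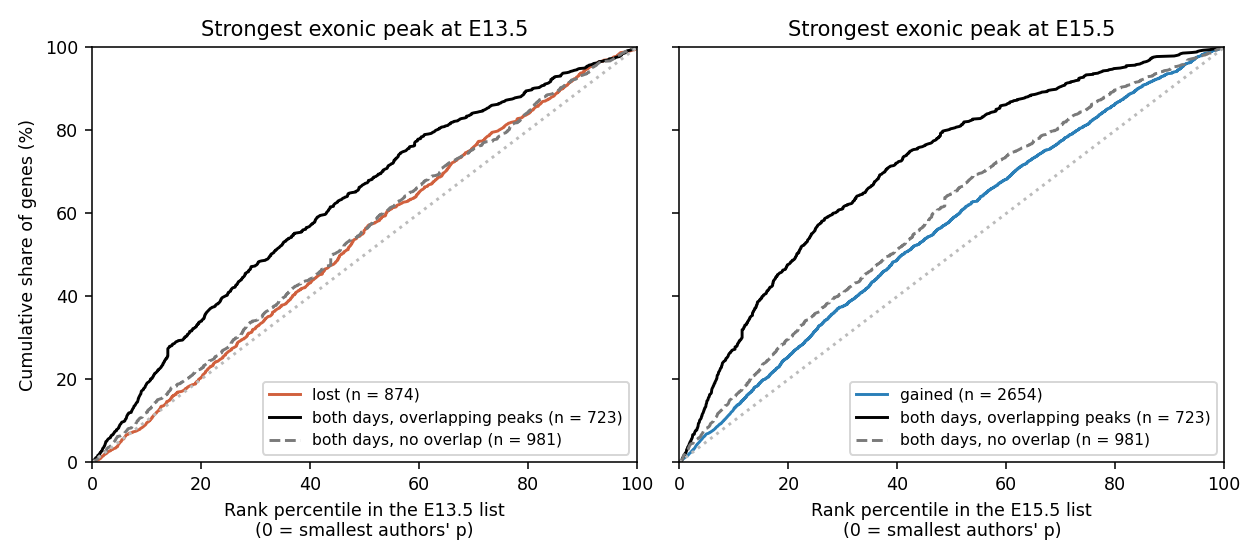
Cumulative share of genes (vertical axis, %) against the rank percentile of the strongest exonic peak in its day's list (horizontal axis, 0 is the smallest authors' p), at E13.5 (left) and E15.5 (right). The curve of shared genes with overlapping peaks (black) lies above the others, with medians of 32.8 and 21.5, while lost genes (orange, 45.7) and gained genes (blue, 40.9) lie nearer the dotted diagonal that all peaks of a list would give.

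The gained genes with the strongest E15.5 peaks served varied cell functions. Rcn2, a calcium-binding protein gene of the endoplasmic reticulum, led with 3 exonic peaks, the strongest in the 3' UTR (chr9:56058312-56058739, rank 4). Xiap, an inhibitor of caspases, followed at rank 6, Mrpl28 of the mitochondrial ribosome at rank 21, and Cbfa2t3, a transcriptional corepressor gene, at rank 26, all in the 3' UTR. Cytoskeletal genes among them were Actb, which encodes beta-actin (rank 23), Mapre1, the microtubule plus-end protein EB1 (chr2:153773022-153773185, rank 25), and Wasf2, an activator of actin branching (rank 42). Several chromatin or transcription genes had 3' UTR peaks as well: Mtf2, a Polycomb partner (rank 29), Anp32e, a histone chaperone gene (rank 31), and Nfia, a transcription factor of deep-layer neurons and glia (rank 45). Ube2e1, a ubiquitin-conjugating enzyme gene, had 4 exonic peaks with the strongest at rank 41. The remaining genes of this set were Lypla2 (rank 30), Apex2 (rank 39), the ribosomal protein gene Rpl12 (CDS, rank 36) and the zinc finger gene Zbtb12 (CDS, rank 40).

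At the far end of the same list stood Rb1, the retinoblastoma gene, gained through a 3' UTR peak at rank 10263 of 10265 (p = 0.00378 in the authors' list). Among lost genes Tfb2m, a mitochondrial transcription factor gene, was lost from a 3' UTR peak at rank 5862 of 5871. A call of gained or lost can thus rest on a peak at the edge of the authors' q limit of 0.01. By number of exonic peaks that touched no other gene, gained genes were led by Zbtb1 with 10, 9130019O22Rik with 9, Dclk2, a doublecortin-like kinase gene, with 8, Mbtps1, a protease of the Golgi, with 8, and Rai14 with 7, which had the best rank among those with 7.

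Lost genes were led by Zfp395, a zinc finger gene with 4 exonic peaks at E13.5, the strongest in the 3' UTR (chr14:65397905-65397981, rank 11). Sema3a, the secreted axon repellent semaphorin 3A, had a 3' UTR peak at rank 52 (chr5:13600466-13600518). Wdr62, a spindle pole gene linked to microcephaly, stood at rank 81, and Cacng4, which encodes an AMPA receptor auxiliary subunit, at rank 74, both in the 3' UTR. Rgl2 (rank 38), Paqr3 (rank 59) and Gnpat (rank 100) also had 3' UTR peaks. CDS peaks were lost from the ubiquitin ligase gene Rnf130 (rank 43), Fam122a (rank 90), Smn1, which encodes the survival motor neuron protein (rank 97), Cd248, a surface protein gene of pericytes and fibroblasts (rank 99), and Cactin (rank 101). Exosc7, an exosome subunit gene, had the most lost peaks with 13, followed by Nectin3 with 5 and by Phc3 and Angptl2 with 4 each.

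The CDS peaks with the best ranks among gained and lost genes, as far as they lay within 1 exon of the representative transcript and clear of any UTR, are given with capitals for bases paired in their predicted fold. Zbtb12 was gained (chr17:34895779-34895916, plus strand, E15.5), and Rnf130 (chr11:50052853-50052915, plus strand) and Smn1 (chr13:100128233-100128282, plus strand) were lost.
Zbtb12: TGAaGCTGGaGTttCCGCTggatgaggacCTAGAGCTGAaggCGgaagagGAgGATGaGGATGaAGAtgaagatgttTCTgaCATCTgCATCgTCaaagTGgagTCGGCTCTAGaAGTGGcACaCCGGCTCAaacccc
Rnf130: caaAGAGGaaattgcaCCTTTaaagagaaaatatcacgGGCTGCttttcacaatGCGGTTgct
Smn1: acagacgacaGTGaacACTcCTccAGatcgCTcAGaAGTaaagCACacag
The Zbtb12 peak spans 138 nt with 52.9% GC and 59.4% paired bases. Rnf130 spans 63 nt with 41.3% GC and 34.9% paired, and Smn1 50 nt with 50% GC and 40% paired. Longer sequences can pair more, so these 3 are shown as examples and not compared.

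Over the classes, peaks in the CDS had weaker predicted folds at E13.5 than at E15.5. The median minimum free energy per 100 nt was -19.1 kcal/mol in 187 lost genes and -21.9 kcal/mol in 464 gained genes whose strongest CDS peak could be folded. Shared genes showed a difference of similar size between their own peaks, -19.7 kcal/mol at E13.5 (n = 356) and -21.8 kcal/mol at E15.5 (n = 329), in the same direction. In the 3' UTR the medians were -17.9 kcal/mol for lost and -18.6 kcal/mol for gained genes, and quartile ranges overlapped widely in every class. Shared genes with overlapping peaks had 3' UTR medians of -20.1 kcal/mol at E13.5 and -21.5 kcal/mol at E15.5. Those without overlap went the other way, from -19.2 to -18.3 kcal/mol. GC content was 47.9% in lost and 46.2% in gained 3' UTR peaks. In CDS peaks it was 53.1% in lost and 54% in gained genes, and in shared genes 53% at E13.5 and 54.2% at E15.5. No spread between replicates can be set beside these medians.

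Most genes that were gained or lost had no peak at all on the other day. Of the 2654 gained genes, 2590 (97.6%, 96.9-98.1) had no same-strand peak at E13.5 in the gene or within 1000 bp past its end, and 54 had an intronic peak. Of the 874 lost genes, 836 (95.7%, 94.1-96.9) had none at E15.5, and 36 had an intronic peak. Few gained or lost genes thus had an intronic or downstream peak in place of the exonic one. The same share over all genes without an exonic peak is not given here, so it is unknown whether this is fewer than for other genes. The median length of the representative transcript was 2950 nt for gained, 2728 nt for lost and 2971 nt for shared genes, against 2411 nt for genes with no peak on either day. Among shared genes, those with overlapping peaks had shorter transcripts (2665 nt) than those without (3211 nt). Across quartiles of transcript length gained genes made up between 49.8% and 52% of the genes listed on either day. The share of lost genes was lower in longer transcripts, at 18.5%, 17.8%, 16.7% and 14.9% from the shortest to the longest quartile.

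The lists of the outer days, E11.5 and E17.5, were not used to call genes gained, lost or shared. That does not make the shares below independent of the choice. All protein-coding genes, and genes with no peak at E13.5 or E15.5, can include genes not expressed in cortex. The lists give no expression level, and how far expression sets the shares was not tested. An exonic peak was listed for 9.09% of all protein-coding genes at E11.5 and for 13.6% at E17.5. Gained genes were listed at E11.5 in 20.3% (18.8-21.9) and at E17.5 in 36% (34.2-37.9). Lost genes were listed in 19.3% (16.8-22.1) and 28.8% (25.8-32.0), and shared genes in 40.1% (37.7-42.5) and 53.3% (50.9-55.7). Shared genes with overlapping peaks reached 48.1% (44.4-51.8) and 62.7% (59.0-66.2), the highest of the classes, while genes with no peak at E13.5 or E15.5 stood at 3.59% and 5.12%. Lost genes, absent at E15.5, were listed at E17.5 more often than at E11.5, in 252 against 169 of 874, and the E17.5 list touched more genes in all. Both outer days were empty for 1356 gained genes (51.1%) and 501 lost genes (57.3%).

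**Figure D2:**
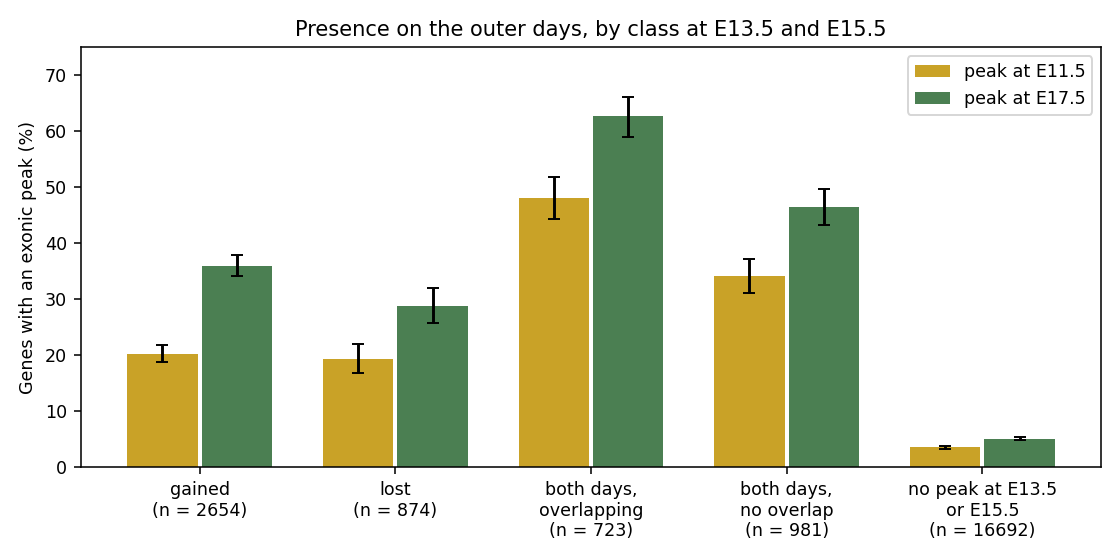
Share of genes with an exonic peak (vertical axis, %) at E11.5 (yellow) and E17.5 (green) for each class of genes at E13.5 and E15.5. Error bars are exact 95% intervals of counting error, and the bars are highest for shared genes with overlapping peaks (48.1% and 62.7%) and lowest for genes with no peak on either day (3.59% and 5.12%).

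The order of classes at E17.5 held in each quartile of transcript length: shared genes were listed in 48.0% to 56.6%, gained genes in 29.6% to 45.2% and lost genes in 19.8% to 36.2%. Within every quartile the share of shared genes was the highest and that of lost genes the lowest. At E11.5 shared genes were again highest in every quartile, while gained and lost genes changed places, with 21.9% of gained and 25.6% of lost genes in the shortest quartile and 22.9% and 20.2% in the longest. Among the stronger 50% of peaks of each day the shares fell to 26.5% of gained, 23.5% of lost and 44.0% of shared genes at E17.5. With the E15.5 list cut to 5871 peaks they were 38.6%, 33.4% and 56.3%.

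Some gained genes had been listed before. There were 540 gained genes with an E11.5 peak, and 198 of them also had an E17.5 peak, so that E13.5 was the day on which these 198 were missing. Map1b, a microtubule-associated protein gene, had 7, 0, 1 and 1 exonic peaks from E11.5 to E17.5. Clasp1, a microtubule plus-end gene, had 8, 0, 3 and 2, and Cenpf, a kinetochore gene, had 7, 0, 2 and 1. In the opposite direction 252 lost genes were listed again at E17.5, such as Celf2, an RNA-binding splicing regulator, with 6, 2, 0 and 1 peaks. These genes came and went between adjacent lists, so gained and lost are statements about 2 days and not about a lasting change.

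Recurrence of the exact position was rarer than recurrence of the gene. The strongest E15.5 peak of a gained gene was overlapped by an E17.5 peak of the same gene in 282 of 2654 (10.6%, 9.48-11.9), which was 29.5% of the gained genes with an E17.5 peak. For lost genes the E13.5 peak was overlapped at E17.5 in 73 of 874 (8.35%, 6.60-10.4), or 29.0% of those with an E17.5 peak. Genes whose peaks overlapped between E13.5 and E15.5 reached 28.6% (25.4-32.1) for the E15.5 peak, or 45.7% of those with an E17.5 peak. Shared genes without overlap stood at 11.8% (9.87-14), or 25.4% of those with an E17.5 peak. Peaks also differed in width, and a wider peak is more easily overlapped. Strongest E15.5 peaks in the 3' UTR that could be folded had a median width of 99 nt in overlapping genes. It was 67 nt in gained genes and 76 nt in shared genes without overlap. How far width accounts for the recurrence was not tested.

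In most genes the strongest peak lay in the 3' UTR. The part of the transcript was read at the peak's midpoint. Among strongest peaks in the 3' UTR or the CDS, the 3' UTR held 74.1% (72.1-75.9) in gained and 69% (65.5-72.4) in lost genes. Shared genes gave 68.5% (65.9-70.9) at E13.5 and 71.5% (69-73.8) at E15.5. With parts taken from 1 representative transcript per gene the shares were 65.9% in gained and 62.7% in lost genes. An intronic midpoint, possible where a peak reaches an exon with its edge, was found for 15.2% of gained and 14.5% of lost genes.

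The strongest peak of a shared gene changed part in 739 of 1704 genes (43.4%, 41.0-45.8). This count includes intronic midpoints and noncoding exons. With at least 50% of each peak in exons it was 31.4%, and with the part of largest overlap 31.8%. Where both midpoints lay in the 3' UTR, the CDS or the 5' UTR, 311 of 1201 changed part (25.9%, 23.4-28.5). The 3' UTR was kept by 701 of the 940 genes that had it at E13.5 (74.6%, 71.7-77.3), and the CDS by 187 of 433 (43.2%, 38.5-48.0). The 3' UTR was the most frequent part on both days. From CDS to 3' UTR went 158 genes and from 3' UTR to CDS 118, a share toward the 3' UTR of 57.2% (51.2-63.2). Among the stronger 50% of peaks that share was 50.8%. Over all exonic peaks of a gene, 76 genes had CDS peaks alone at E13.5 and 3' UTR peaks alone at E15.5, and 53 had the reverse.

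**Figure D3:**
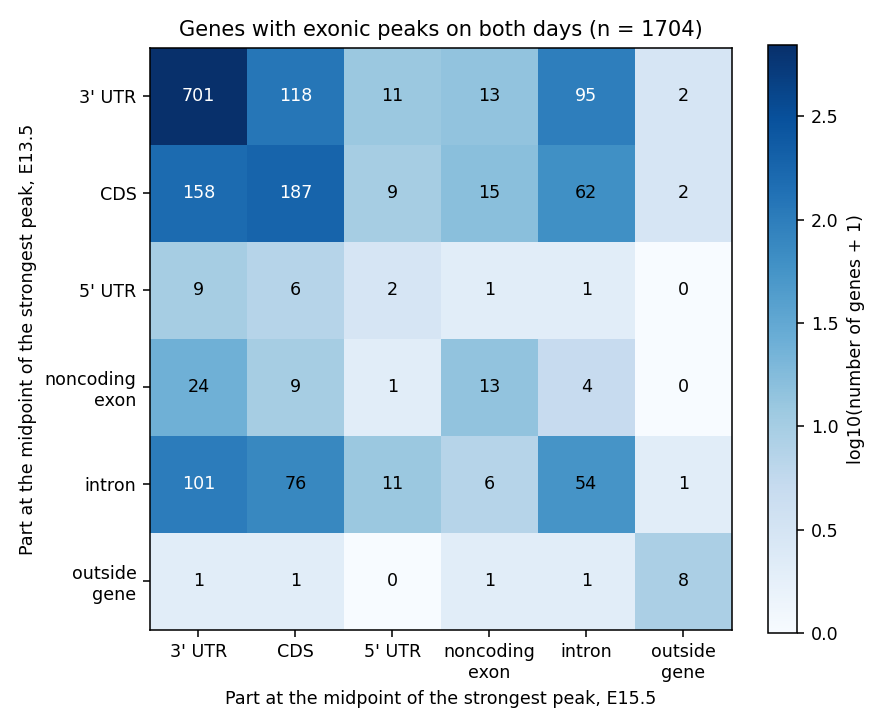
Number of shared genes by the part of the transcript at the midpoint of their strongest peak at E13.5 (rows) and E15.5 (columns); shading is log10 of the number plus 1. The largest cells are 3' UTR on both days (701 genes) and CDS on both days (187 genes), and 158 genes went from CDS to 3' UTR against 118 the other way.

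Genes that moved without overlapping peaks are named by their mean rank, 5 in each direction. The move is that of the strongest peak, and weaker peaks could lie in the other part on either day. Pdcd4, an inhibitor of a translation initiation helicase, had its peak at -520 to -459 nt from the end of the CDS at E13.5 (rank 211) and at 47 to 95 nt at E15.5 (rank 639). Mtif3, a mitochondrial translation initiation factor gene, went from rank 386 in the CDS to rank 1234 in the 3' UTR. Shank1, a postsynaptic scaffold gene, had 2 CDS peaks at E13.5, whereas its 5 peaks at E15.5 lay in both parts with the strongest in the 3' UTR (chr7:44358881-44358979, rank 104). Mkrn1 (ranks 336 and 556) and Mtss1l (ranks 1261 and 399) completed the direction from CDS to 3' UTR. Mkrn1 already had a weaker 3' UTR peak at E13.5 (964 to 1137 nt, rank 1406), and both genes had weaker CDS peaks at E15.5. The other direction was led by Snrnp35 of the minor spliceosome (ranks 787 and 268), Casc3, a core protein gene of the exon junction complex (ranks 667 and 460), and Sall1, a transcription factor gene of progenitors (ranks 723 and 449). Gps2 (ranks 1235 and 64) belonged to the same direction by the rule over all isoforms. On the representative transcript its E13.5 peak ran across the end of the CDS, from -74 to 49 nt, with its midpoint in the CDS. Casc3 also had a weaker 3' UTR peak at E15.5 (162 to 247 nt, rank 826), and Sall1 a weaker CDS peak at E13.5 (rank 5647). In Lmo4, which encodes a LIM protein of cortical neurons, the peak lay at 377 to 532 nt at E13.5 and at -99 to -11 nt at E15.5 (rank 108).

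Pdcd4 and Snrnp35 show the 2 directions. The CDS peaks are given whole, the 3' UTR peaks by their central 30 bases, with capitals for bases paired in the predicted fold of the whole peak. They lie on the plus strand at chr19:53922032-53922092 and chr19:53929200-53929229 for Pdcd4, and at chr5:124490949-124490978 and chr5:124490298-124490401 for Snrnp35.
Pdcd4 E13.5 CDS: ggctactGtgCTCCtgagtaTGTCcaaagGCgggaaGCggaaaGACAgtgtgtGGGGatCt
Pdcd4 E15.5 3' UTR: ttgTCagTACAGgttttcttttccttttgt
Snrnp35 E13.5 3' UTR: cgCTCCaaccaCAgCCacataGGaTGagag
Snrnp35 E15.5 CDS: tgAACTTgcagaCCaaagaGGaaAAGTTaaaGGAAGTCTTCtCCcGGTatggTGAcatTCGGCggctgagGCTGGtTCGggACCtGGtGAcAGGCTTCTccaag
In Pdcd4 the CDS peak had 55.7% GC and 36.1% paired bases. The Snrnp35 CDS peak had 52.9% GC and 57.7% paired bases. Snrnp35 also had a weaker E13.5 peak across the end of its CDS (rank 1772), at -34 to 32 nt.

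**Figure D4:**
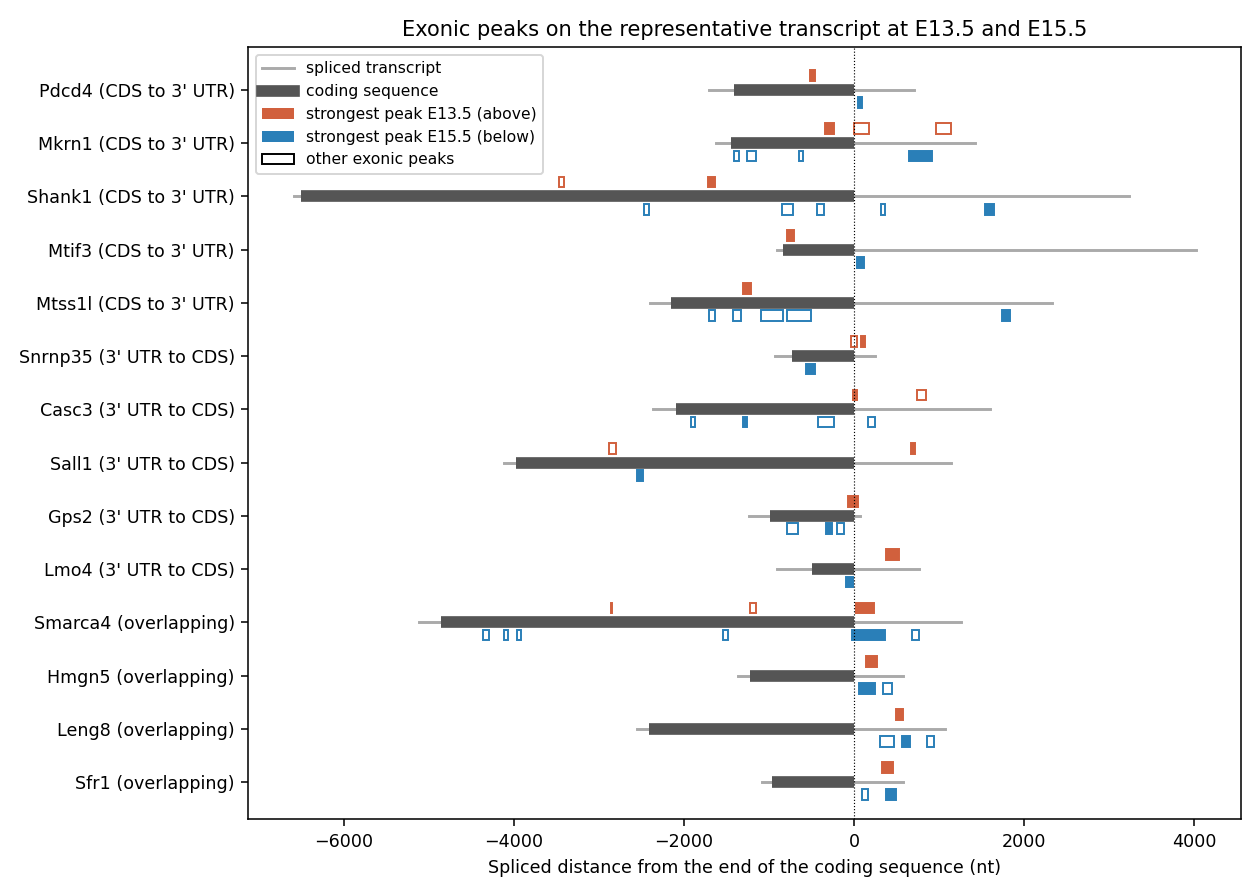
Exonic peaks on the spliced representative transcript of 14 shared genes; the horizontal axis is the distance in nt from the end of the CDS (0), grey bars are CDS, thin lines the whole transcript. Orange boxes above a transcript are E13.5 peaks and blue boxes below are E15.5 peaks, filled for the strongest of a day: in Pdcd4 the filled boxes lie on opposite sides of 0, and in Smarca4 they overlap just past it.

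Where both strongest peaks lay on the representative transcript without overlap, their distance varied widely. The median spliced distance over 562 genes was 632 nt (quartiles 317 and 1188), and 39.7% lay within 500 nt. In 292 genes with both peaks in the 3' UTR the median was 562 nt, and the E15.5 peak lay nearer the 3' end in 42.8% (37.1-48.7). In 83 genes with both peaks in the CDS it was 373 nt, with 57.8% (46.5-68.6) nearer the 3' end. The 3' UTR peaks thus lay more often nearer the CDS at E15.5, while the interval for the CDS includes an even split. Mycn, a proliferation factor gene, shows how far ranks could differ at a short distance: its 3' UTR peak was at rank 5396 at E13.5 (chr12:12936609-12936656) and at rank 5 at E15.5 (chr12:12936834-12936919).

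Shared genes had more exonic peaks at E15.5 in 704 cases, as many in 720 and fewer in 280. Kmt2a, a histone methyltransferase gene, rose from 2 to 15, and Dync1h1, the dynein heavy chain gene, from 1 to 8. Mki67 fell from 14 to 9. The E15.5 list was longer in all, as given above.

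Gene lists were described by the number of members gained, lost and shared, to be read against 50.7%, 16.7% and 32.6% over all genes listed on either day. Unless a whole list is named, counts are of members with a peak on either day, which 23.9% of all protein-coding genes had. No list was tested. Among the stronger 50% of peaks of each day the shared members fell from 24 to 14 for RNA-binding and translation genes, from 26 to 13 for chromatin regulators, from 16 to 9 for cytoskeletal genes and from 11 to 2 for cell cycle genes, as shared genes did in all. Of 9 radial glia genes listed, 3 were gained, none was lost and 6 were shared. Fabp7, a lipid-binding protein gene of radial glia, was gained with a 3' UTR peak at rank 213, and Emx1, a cortical transcription factor gene, with a CDS peak at rank 178. Pax6, Sox9, Prom1, Emx2, Lhx2 and Nr2e1 were shared. Pax6 had its strongest peak in the 3' UTR at E13.5 (rank 2403) and in the 5' UTR at E15.5 (rank 8414). Cortical genes such as Emx1, Emx2, Lhx2 and Tbr1 were thus listed in the tissue labelled cortex, and the lists give no expression level.

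Of 12 intermediate progenitor genes listed, 5 were gained, none lost and 7 shared. Eomes, which encodes TBR2, the defining factor of these cells, had 3 exonic peaks on each day, at best rank 39 at E13.5 (intronic midpoint, 2038 bp wide) and rank 516 at E15.5 (CDS), and none at E11.5 or E17.5. Neurog1, Neurod1, Mfap4, Hes6, Gadd45g and Dll3 were the other shared members. Neurog2, Insm1, Mfng, Rfng and Lfng were gained, each at a rank of 3448 or weaker. With the E15.5 list cut to 5871 peaks, 1 member was gained and 2 were lost, so 4 of the 5 gains rested on weaker E15.5 peaks.

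Deep-layer neuron genes had 6 gained, 1 lost and 3 shared members of 10. The gained ones were Tbr1 (rank 745), Tle4 (rank 651), Nfia (rank 45), Nr4a2 (rank 8641), Foxp1 (rank 9191) and Sox11 (rank 6678). Fezf2, a master regulator of subcortical projection neurons, and Rprm were shared with overlapping peaks, and Rprm went from rank 555 to rank 35. Ldb2 was lost. Of 5 upper-layer genes listed, 2 were gained, Pou3f3 (CDS, rank 359) and Mdga1 (rank 5096), and 3 were shared, Lhx2, Dok5 and Lmo4. The deep-layer gains fell to 3 with the shortened E15.5 list.

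Pan-neuronal genes had 12 shared, 3 gained and 4 lost members of 19. The lost ones were Stmn1, a tubulin-binding protein gene (rank 314), Ank2, an ankyrin gene (3' UTR, rank 391), the tubulin gene Tubb2b (CDS, rank 1846) and the transcription factor gene Neurod6 (rank 1558). Tubulin genes have close paralogs, so reads of Tubb2a and Tubb2b may have been split between them. Dcx, the migration gene doublecortin, went from rank 5638 to rank 682, both in the 3' UTR without overlap. Gap43, Elavl3 and Ncam1 were gained. Requiring at least 50% of the peak in exons left 2 lost members. Among the stronger 50% of peaks 4 members were shared, 9 gained and 6 lost, so the larger number of shared members did not hold there.

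Of 22 markers of vessels and meninges 11 (50%) were listed on either day. Of these 11, 7 were lost (63.6%), 2 gained and 2 shared. The share of losses was the highest among the lists with at least 5 members listed. Sparc, a matrix-binding glycoprotein gene, had the strongest lost peak of the list in its 3' UTR (chr11:55394563-55394723, rank 126), followed by the collagen genes Col1a2 (rank 364), Col3a1 (rank 1407) and Col1a1 (rank 2104). Vtn, Dcn and Col4a2 stood at ranks 3219, 4612 and 5090. Col4a1 of the vascular basement membrane was shared, at rank 183 and rank 442 in its 3' UTR without overlap, and the growth factor gene Igf2 at ranks 1180 and 4201. Cldn5, the endothelial tight junction gene, and Fn1 were gained. From E11.5 to E17.5, 2, 9, 4 and 0 members of the list were listed. Of the 7 lost members 0 had a peak at E11.5, so E13.5 was the day with most members and not the start of a steady decline. Cd248 and Angptl2, named above among lost genes, are also known from pericytes and mesenchyme but were not in the list. They were picked out after being seen as lost, and other genes outside the list were not searched, so they add nothing to its counts. The list members Pdgfrb, Rgs5 and Acta2 had no peak on either day. With the shortened E15.5 list 0 members were gained, and among the stronger 50% of peaks 4 were lost and 0 gained. Fewer such cells in the dissected tissue and less of their RNA bound cannot be told apart here. Of all 14 microglial genes Csf1r alone was listed, as shared, and none of all 12 erythroid or 10 oligodendrocyte lineage genes was listed on either day.

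RNA-binding and translation genes had 24 shared members of 39 (61.5%), with 14 gained and 1 lost, Celf2. Overlapping peaks were found in 12 of the 24, among them Celf3, Msi1, Nova2, Rbfox2, Tardbp, Pabpc1 and Dgcr8. Dgcr8, a cofactor for cutting primary microRNAs, stood at ranks 275 and 332 in its 3' UTR. Upf3b of nonsense-mediated decay went from a CDS peak at rank 88 to a 3' UTR peak at rank 2148, and Larp1 from a CDS peak at rank 244 to a 3' UTR peak at rank 4921. All 3 genes of the Igf2bp family of zipcode-binding proteins were gained, at ranks 4858, 8927 and 7363 for Igf2bp1, Igf2bp2 and Igf2bp3. With the shortened E15.5 list 9 members were gained, 5 lost and 20 shared. The median rank percentile of members was 26.8 at E13.5 and 27.7 at E15.5, against 42.4 and 37.0 over all genes.

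The Staufen genes themselves were shared. Stau2 had 1 exonic peak at E13.5 (3' UTR, chr1:16344817-16344950, rank 1687) and 2 at E15.5, the stronger in the 3' UTR (chr1:16345323-16345517, rank 6032). Its strongest peaks did not coincide, although the gene had an overlapping pair. Stau1, the paralog, went from a CDS peak at rank 3364 to a peak with an intronic midpoint at rank 2797, without overlap. A list of transcripts regarded as STAU2 cargo was drawn up from general knowledge, with no literature at hand to check its members. Of its 18 genes 9 had a peak on either day, and of these 7 were gained, 1 was lost and 1 was shared. Gained were Actb, Bbs2, Bcl2l1, Limk1, Map1b, Trim32 and Cdc25b, lost was Ddx1 (CDS, rank 1437), and shared was the complexin gene Cplx1, with overlapping 3' UTR peaks. Apart from Actb the gained cargo stood at rank 2141 (Map1b) or weaker.

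Chromatin regulators had 26 shared, 14 gained and 7 lost members of 47. Kat6b, a histone acetyltransferase gene, stood at rank 6 at E13.5 (CDS) and at rank 2401 at E15.5, while Setd5 went from rank 1647 in the CDS to rank 52 in the 3' UTR. Smarca4 and Srcap kept overlapping peaks on both days. Lost members were Arid1b, Asxl3, Chd8, Ep300, Hdac2, Hdac3 and Smarca2, at ranks from 373 (Asxl3) to 5458 (Hdac3). Smarcb1 (rank 317) and Setd2 (rank 488) led the 14 gained ones. Cut to equal length, the E15.5 list left 8 gained members.

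Cytoskeletal and growth cone genes had 19 gained, 4 lost and 16 shared members of 39, and 13 of the 16 overlapped. Spire1, an actin nucleator gene, and Capzb, an actin capping gene, were strong on both days, at ranks 86 and 291 and at ranks 374 and 515. Beside Actb, Mapre1 and Wasf2 the gained members included Map1a (CDS, rank 495), Clasp1 (rank 869) and Cdc42 (rank 1164). Lost were Cfl1, Stmn1, Tubb2a and Tubb2b. Dpysl5, a collapsin response mediator gene, kept the 3' UTR but went from rank 4480 to rank 112. With the shortened list 8 members were lost.

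Axon guidance genes had 13 gained, 4 lost and 6 shared members of 23. Losses were Sema3a, Sema4d, the semaphorin receptor gene Plxna2 (3' UTR, rank 580) and the Slit receptor gene Robo2 (rank 3580). The ligand genes Slit1 and Slit2 were gained with intronic midpoints at ranks 4045 and 3405, and the receptor genes Plxna1, Plxna3, Plxnb2 and Ephb2 with 3' UTR peaks, the best at rank 1031 (Plxna1). Ephrin genes Efna3, Efnb2 and Efnb3 were gained and Efnb1 was shared. Sema5a, with overlapping 3' UTR peaks, went from rank 165 to rank 3351. Losses were thus found for ligands and receptors alike.

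Synaptic genes had 15 shared, 12 gained and 1 lost member of 28, the lost one being the AMPA receptor subunit gene Gria3. Gria2 of the same family was shared at rank 232 (3' UTR) and rank 77 (noncoding exon), and Gabbr1, a GABA-B receptor gene, at ranks 590 and 236 with overlapping peaks. Dlg3, a postsynaptic scaffold gene, led the gained members at rank 246, and Unc13a of synaptic vesicle priming stood at rank 1923. Motor genes had 16 shared, 12 gained and 4 lost members of 32. Ndel1, a dynein regulator gene with 3 exonic peaks (best rank 261), was lost, while its relative Nde1 was gained at rank 480. Lost dynein subunit genes were Dync1li1, Dynlt1b and Dynlt3. Klc1, a kinesin light chain gene, went from rank 1791 to rank 126 and kept overlapping peaks.

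Cell cycle genes had 18 gained, 7 lost and 11 shared of 36. Lost were Cdkn1a and Cdkn1c, which encode cyclin-dependent kinase inhibitors, Top2a, Bub1b, Myc, Aspm and Wdr62, of which the last pair are spindle genes linked to microcephaly (ranks 1138 and 81). Gmnn, the geminin gene, led the gains with a 3' UTR peak at rank 164, and Cdt1, whose product geminin binds, was gained at rank 884. Cdk4 was shared and went from rank 4370 to rank 71. With the shortened list 11 were gained, 11 lost and 7 shared. The list of Wnt and Notch pathway genes had 12 gained, 7 lost and 7 shared members of 26. It held Tcf4, a bHLH factor gene that is no TCF of the Wnt pathway, and without it 6 of 25 were lost. The Wnt coreceptor gene Lrp6 (rank 274), Tcf7l2, Wnt7b, Rbpj, Maml1 and Ncstn were lost, while Notch1, Axin2, Lef1, Apc and Gsk3b were among those gained. In this list 5 members were gained with the shortened E15.5 list. Interneuron genes had 3 gained members, Lhx6 and Calb2 among them, 1 lost, Maf, and 1 shared, Sst.

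**Figure D5:**
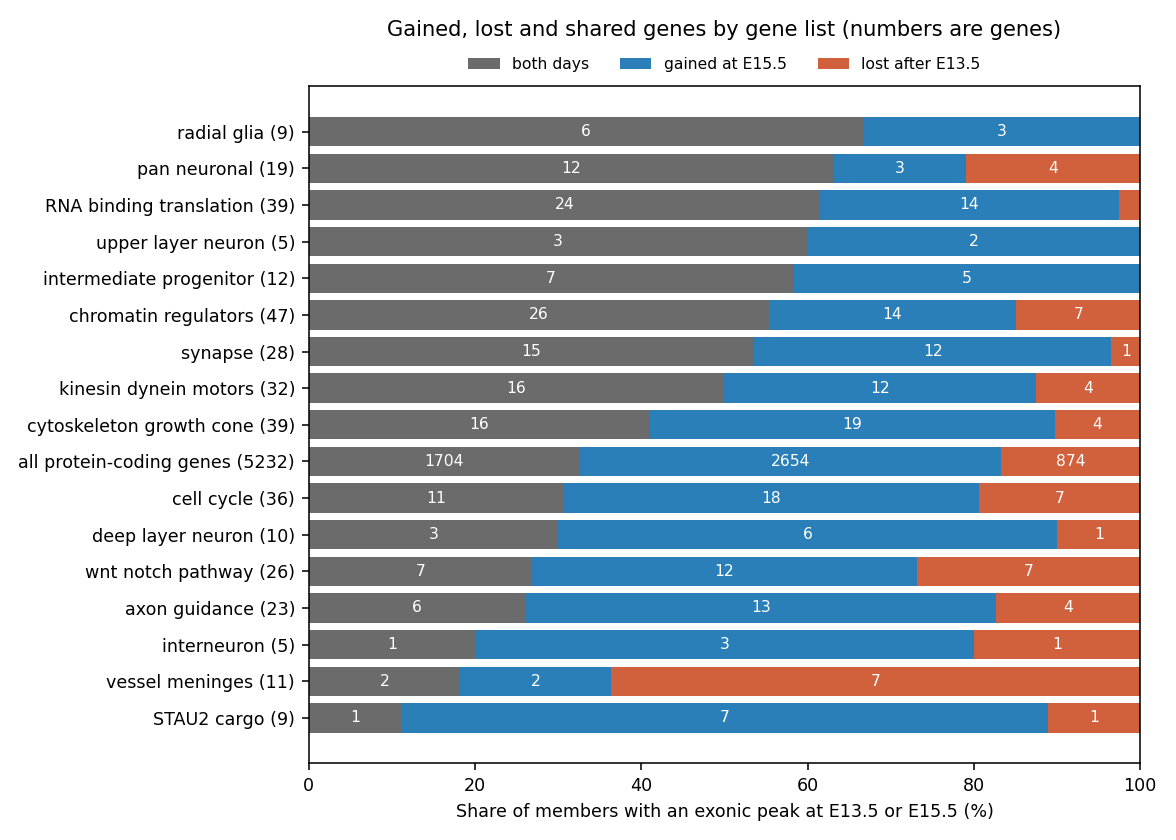
Share of the members listed on either day (horizontal axis, %) that were shared (grey), gained (blue) or lost (orange), for each gene list with at least 5 such members, with their number in parentheses and gene counts in the bars. Vessel and meninges markers have the longest orange bar (7 of 11), and radial glia, upper-layer and intermediate progenitor genes have none, next to 874 of 5232 for all genes.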

How the data were processed

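STAU2 RIP and input RNA of mouse cortex was sequenced in 24 libraries, 3 of each kind at 4 embryonic days. The 8 peak lists, 1 per day and strand, use mm10. Cufflinks 2.2.1, bedtools 2.17.0, TopHat and TopHat2 2.0.9 appear in the submitters' processing notes, as does that build; the peak caller is not given in the sources used here. The authors deposited a score, a signal, a p-value and a q-value (at most 0.01) per peak, without column names. Only the p-value was used, to rank peaks within a day, over both strands. Score, signal and q-value were described as deposited and not compared. Depth is unknown, as the lists give no read totals.

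Genes were GENCODE vM21 (GRCm38), with entries of 1 symbol, chromosome and strand merged. Parts were read at peak midpoints over all isoforms, a 3' UTR taking priority, then CDS, 5' UTR, other exons and introns. Overlap meant at least 1 bp. The representative transcript had the longest CDS. Peak sequences of up to 300 nt within 1 exon were folded with RNAfold 2.7.2. Python 3.11.15 and scipy 1.17.1 gave exact intervals. Assignment was tested on simulated data. Members and the 19 gene lists were chosen with earlier results of these data known.

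Named genes were the 15 gained and 12 lost with the smallest p, 10 with the best overlapping pair, 5 moved in each direction between CDS and 3' UTR, those with most peaks, Staufen genes and list members; peaks touching 2 or more genes or over 5000 bp were left out of that choice, except for list members. Genes outside the rule (Itm2b, Ppp5c, Srrm2 and Tfb2m) were chosen after their values were seen. Alternatives used stronger peaks, equal list lengths, other overlaps, transcripts and part rules.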

Additional observations from a re-analysis of the deposited data

How the results depend on the processing

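No paired analysis was possible because each day has 1 list per strand and no value per library; for the same reason no replicate could be left out. Of 96 comparison values under the alternatives, 71 moved by less than their interval or by less than 1.5 times, and 25 moved further. A change of direction could be scored only for the share of moves between CDS and 3' UTR, where 0 values crossed 50%. Of 345 gene list counts 49 moved by more than 1.5 times. With the E15.5 list cut to 5871 peaks, gained genes were 1749, overlapping genes 39.6% of shared genes, and gained, lost and shared genes had an E17.5 peak in 38.6%, 33.4% and 56.3%; lost and shared genes had an E11.5 peak in 23.4% and 42.5%. Among the stronger 50% of peaks, 768 genes were shared, 33.1% of them overlapped, 50.8% of moves between CDS and 3' UTR went to the 3' UTR, E11.5 peaks were found in 14.9% of gained, 15.1% of lost and 28.6% of shared genes, and E17.5 peaks in 26.5%, 23.5% and 44.0%. These settings use fewer peaks by construction. With at least 50% of the shorter peak overlapped, 35.1% of shared genes overlapped, and with a gap of up to 100 bp 51.4%. When exons had to hold at least 50% of a peak, 31.4% of shared genes changed part and 37.7% had an E11.5 peak. Read by largest overlap, 31.8% changed part, and the 3' UTR held 64.3% of gained and 60.8% of lost genes; on 1 representative transcript it held 65.9% and 62.7%. For the part rules the cause was not tested. The alternatives for outer days, for 3' UTR shares of gained and lost genes and for gene lists were added after seeing the data. Depth is unknown, so a gene absent from a list may be below detection.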
